A study of Homo sapiens with 4 samples.

Results

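The 37 genes described here belong to the ATF4 pathway and the unfolded protein response, and were chosen by symbol from the 59050 genes counted in each library. All 37 had a row in the deposited counts and all 37 passed the filter on low counts, as did 17479 genes in all. RNA-seq libraries, 4 in number, came from HepG2 cells according to the labels, a line grown from a human hepatocellular carcinoma. Of these, 2 were untreated (0 h) and 2 had received doxorubicin, which breaks DNA and thereby induces p53, at 1 µg/ml for 24 h. The labels describe no genetic change in either group. The titles call the untreated libraries HepG2-nop53-mRNA-seq and the doxorubicin libraries HepG2-p53-mRNA-seq, and name no drug. A treatment tag on the doxorubicin libraries reads p53-miRNA, and the treatment protocol, which gives doxorubicin, was followed instead. No label says whether replicates came from separate cultures, so that p-values measure the spread between these libraries.

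The libraries held between 27572740 and 36272180 counts. Levels are given as CPM, the counts of a gene as a share of the counts of its library times 1000000. The label was not borne out by the markers of liver, since 10 liver genes together reached 0.965 and 4.16 CPM untreated and 5.92 and 4.75 CPM after doxorubicin, between 0 and 6 of the 10 were at 0 in a library, and ALB had at most 3 counts. Of 5 squamous epithelium markers KRT17 was between 929 and 1587 CPM, KRT14 reached at most 7.43, and KRT5, KRT6A and TP63 at most 0.381, 0.45 and 0.381. As a check of the treatment, CDKN1A, a p53 target that blocks the cell cycle, was at 380 and 866 CPM untreated (replicates 1 and 2). After doxorubicin it was at 1003 and 880 CPM (replicates 1 and 2), and values below follow this order of libraries. The log2 fold change of CDKN1A was 0.44 ± 0.44 (SE, adjusted p = 0.8, edgeR). It was 1.16 without untreated replicate 2 and 0.04 without untreated replicate 1, so that the check depended on the untreated library used. Untreated replicate 2 was either the lowest or the highest library in 81.6% of the genes tested. The main comparisons are therefore given with it and without it. In bulk RNA, less RNA of a gene per cell and fewer cells that express it cannot be told apart.

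ATF4 is a transcription factor made in greater amount when stress kinases phosphorylate the initiation factor eIF2 alpha, and it drives genes for amino acid synthesis, amino acid uptake and stress signaling. The unfolded protein response of the endoplasmic reticulum (ER) starts from 3 sensors. PERK (EIF2AK3) acts through eIF2 alpha and ATF4, IRE1 (ERN1) splices the mRNA of XBP1, and ATF6 is cut to release a transcription factor, and the latter pair induce chaperones and degradation factors of the ER. Counts per gene show neither the translation of ATF4 nor the splicing of XBP1. The genes were divided into an ATF4 branch of 22 genes, an ER branch of 12 genes and the 3 sensors. The division is one of convenience, since HERPUD1 in the ER branch is known to respond to ATF4 as well.

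Motifs of both branches were looked for around the starts of the genes. Promoters of 33 of the 37 genes, from 250 bases before to 50 bases after the start, were taken from RefSeq (GRCh38.p14), and each of 4 motifs was searched on both strands. The C/EBP-ATF response element of ATF4 (CARE, searched as TGATGNAA) was found in 5 of 18 genes of the ATF4 branch and 1 of 12 genes of the ER branch, and in 4.46% of all 27305 genes with a promoter. The ER stress response element of the ATF6 and XBP1 targets (ERSE, searched as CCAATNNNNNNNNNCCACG) was found in 0 of 18 genes and 5 of 12 genes, and in 0.0916% of all genes. A shorter form (ERSE-II, searched as ATTGG, any base, and then CCACG) was found in 0 and 3 genes, and in 0.0696% of all genes. The unfolded protein response element (UPRE, searched as TGACGTGG) was found in HYOU1 alone among the genes examined, where it overlapped 1 of the 2 ERSE-II matches, and in 0.927% of all genes. No match was found for the 3 sensors. The stretches below are shown because they hold the motifs known for each branch, and HERPUD1 is shown because it holds a motif of each branch. The capitals mark the matched letters and lower case marks the bases around them. The stretches of the ATF4 branch lie at chr7:97872451-97872494 on the minus strand (ASNS), chr15:40953244-40953287 on the plus strand (CHAC1) and chr19:33374053-33374096 on the plus strand (CEBPG). Those of the ER branch lie at chr16:56931948-56932053 on the plus strand (HERPUD1), chr22:28800585-28800639 on the minus strand (XBP1), chr22:49918536-49918590 on the plus strand (CRELD2) and chr22:21642096-21642142 on the plus strand (SDF2L1).
ASNS: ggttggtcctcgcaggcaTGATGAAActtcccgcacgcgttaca
CHAC1: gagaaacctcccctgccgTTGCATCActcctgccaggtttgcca
CEBPG: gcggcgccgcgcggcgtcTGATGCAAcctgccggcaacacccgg
HERPUD1: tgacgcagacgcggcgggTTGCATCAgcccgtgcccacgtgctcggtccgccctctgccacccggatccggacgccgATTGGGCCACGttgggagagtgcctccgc
XBP1: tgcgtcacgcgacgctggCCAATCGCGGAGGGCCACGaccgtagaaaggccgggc
CRELD2: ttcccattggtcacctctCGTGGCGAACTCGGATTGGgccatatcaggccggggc
SDF2L1: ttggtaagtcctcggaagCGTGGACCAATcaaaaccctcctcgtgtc

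The matches in ASNS lay at -68 to -61 from the start, in CEBPG at -42 to -35 and in CHAC1 at -209 to -202. In HERPUD1 the CARE match at -176 to -169 was followed by the ERSE-II match at -117 to -107. The letters are a description of these windows and say nothing of binding in these cells.

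The first comparison asked which of the 37 genes differed between doxorubicin-treated and untreated cells. With all 4 libraries, 0 of the 37 genes passed both thresholds, which were 0.05 for the adjusted p-value and 1 for the size of the log2 fold change (edgeR quasi-likelihood test, Benjamini-Hochberg over all genes), as did 0% of all 17479 genes. DESeq2 also called 0 of the 37 genes, against 0.509% of all genes, and the exact test of edgeR called 0, against 0.263%. Without adjustment, 6 genes had an edgeR p-value under 0.05, against 4.39% of all genes. The 5 with higher levels in treated cells were STC2, VLDLR, NUPR1, HERPUD1 and SEL1L, against 2.66% of all genes in that direction, and the 1 with a lower level was ATF5, against 1.73%. Of HERPUD1 and SEL1L, the pair in the ER branch, 0 had such a p-value in DESeq2 or with the replicate number as a block, and 1 had it in the exact test. By CPM, which has library size alone as its scaling, both doxorubicin libraries lay above both untreated libraries in 17 of the 37 genes. In 4 genes both lay below. Among all genes these shares were 30.3% and 11.5%. Set against untreated replicate 1 alone, both doxorubicin libraries were higher in 24 of the 37 genes and lower in 7, while among all genes they were higher in 53.1% and lower in 24.7%.

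**Figure D1:**
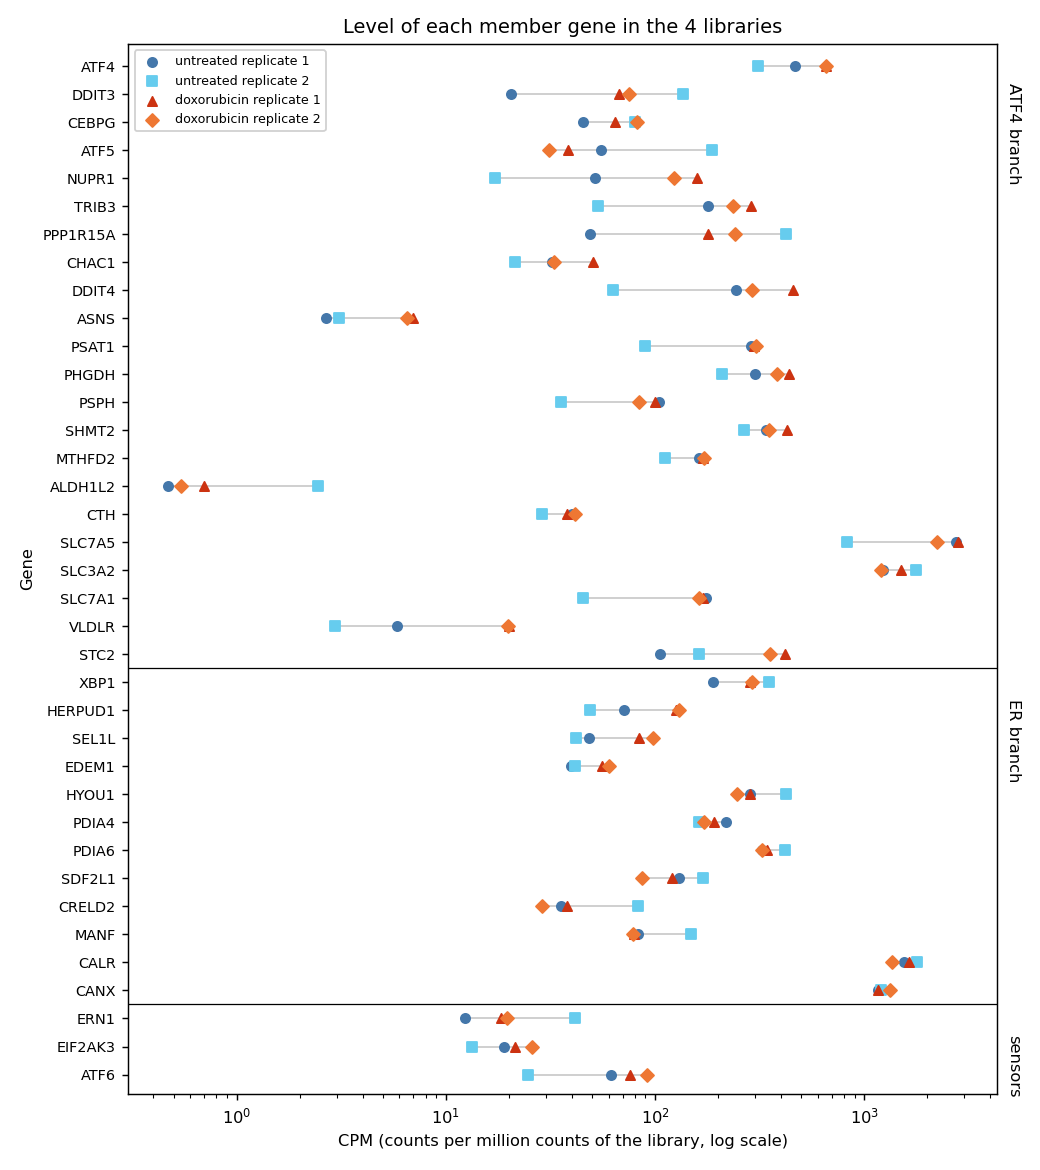
The plot gives the CPM (log axis) of each of the 37 genes in each of the 4 libraries, with a grey line from the lowest to the highest value and black lines between the ATF4 branch, the ER branch and the sensors. Untreated replicate 2 (light squares) is the lowest of the 4 libraries in 14 of 22 genes of the ATF4 branch and the highest in 7 of 12 genes of the ER branch.

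The transcription factors and stress effectors of the ATF4 branch were read first. ATF4 itself (chromosome 22, 39519695 to 39522683, GRCh38) was read at 467 and 309 CPM in the untreated libraries and at 655 and 656 CPM in the doxorubicin libraries. Both treated libraries were above both untreated libraries, and the treated libraries were alike. The log2 fold change was 0.60 ± 0.32 (SE, adjusted p = 0.773, edgeR), and it was 0.34 without untreated replicate 2.

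DDIT3, which encodes CHOP, a factor tied to cell death under ER stress (chromosome 12, 57516588 to 57521737), was read at 20.4 and 136 CPM in the untreated libraries and at 67.6 and 75.1 CPM in the doxorubicin libraries. The treated libraries lay between the untreated libraries. Its log2 fold change was -0.29 ± 0.82 (SE, adjusted p = 0.92, edgeR). PPP1R15A, which encodes GADD34, the subunit that directs a phosphatase to eIF2 alpha, had the same order of libraries, with a CPM of 49.0, 422, 180 and 241. ATF3, a stress-induced factor downstream of ATF4 that is not among the 37 genes, was at a CPM of 10.4, 333, 49.8 and 65.6. In all 3 genes untreated replicate 1 was the lowest library and untreated replicate 2 the highest. Without untreated replicate 2, DDIT3 and PPP1R15A had log2 fold changes of 1.66 and 1.95. Without untreated replicate 1, their log2 fold changes were -1.02 and -1.09. Each of these fits rests on 1 untreated library, and the direction of both genes depended on which one was used.

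The groups of NUPR1, which encodes a small stress-induced chromatin protein (chromosome 16, 28532708 to 28539008), did not overlap. NUPR1 was at 51.6 and 17.2 CPM untreated and at 158 and 123 CPM after doxorubicin, for a log2 fold change of 1.87 ± 0.58 (SE, adjusted p = 0.773, edgeR). TRIB3, a pseudokinase that restrains ATF4 and CHOP, was at 179 and 53.2 CPM untreated and at 289 and 236 CPM after doxorubicin. DDIT4, an inhibitor of mTORC1 that is also a known p53 target, was at 243 and 63.1 CPM untreated and at 455 and 291 CPM after doxorubicin. For TRIB3 and DDIT4 the gap between the untreated libraries, -1.75 and -1.95 on the log2 scale, was larger in size than the gap between untreated replicate 1 and either treated library, which was at most 0.70 and 0.90. Their log2 fold changes were 1.03 and 1.13, and 0.41 and 0.48 without untreated replicate 2. CHAC1, an enzyme that degrades glutathione, was at 32.0 and 21.4 CPM untreated and at 50.7 and 32.7 CPM after doxorubicin, so that doxorubicin replicate 2 was within 0.03 of untreated replicate 1 on the log2 scale.

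ATF5, a relative of ATF4 with its own role in the mitochondrial stress response (chromosome 19, 49928702 to 49933935), was the 1 gene of the ATF4 branch with both treated libraries below both untreated libraries. It was at 55.1 and 188 CPM untreated and at 38.2 and 31 CPM after doxorubicin, for a log2 fold change of -1.96 ± 0.63 (SE, adjusted p = 0.773, edgeR). Of its exon bases, 19.9% overlap NUP62 on the other strand (GENCODE 44), and the use of strand in counting is not given in the sources used here. Without untreated replicate 2 its log2 fold change was -0.81, with an adjusted p-value of 0.0176 (edgeR). CEBPG, a dimer partner of ATF4, was at 45.4 and 80.3 CPM untreated and at 64.2 and 81.7 CPM after doxorubicin, and the groups overlapped.

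**Figure D2:**
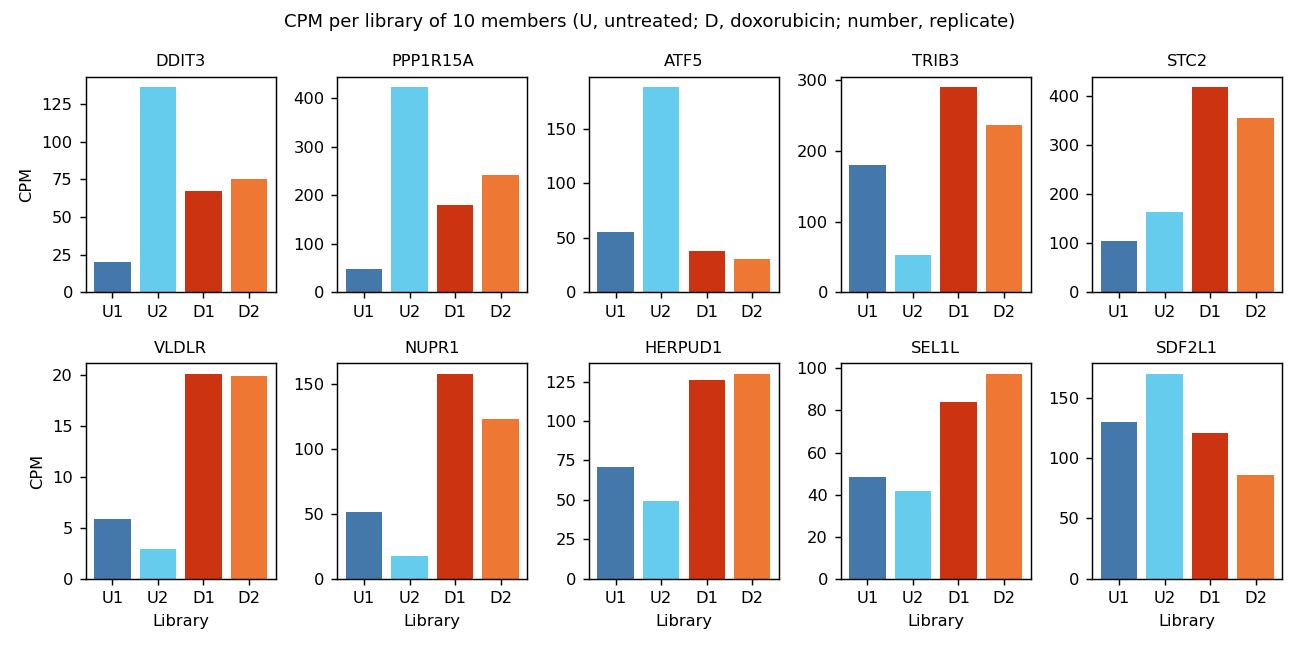
Bars give the CPM of 10 genes in untreated replicates 1 and 2 (U1, U2) and doxorubicin replicates 1 and 2 (D1, D2), each panel with its own axis from 0. In DDIT3, PPP1R15A and ATF5 the bar of U2 is the tallest, in TRIB3 and NUPR1 it is the shortest, and in STC2, VLDLR, HERPUD1 and SEL1L both D bars stand above both U bars.

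The amino acid and one-carbon enzymes of the ATF4 branch numbered 8, and 0 of them had an edgeR p-value under 0.05 with all libraries. ASNS, the synthetase of asparagine, was at 2.67 and 3.08 CPM untreated and at 6.99 and 6.49 CPM after doxorubicin. The groups were apart and the replicates were close, with a log2 fold change of 1.08 ± 0.49 (SE, adjusted p = 0.773, edgeR). ASNS was low for its length, with at most 2.39 CPM per kb of exon in any library, against 130 in untreated replicate 1 for PSAT1. Of its exon bases, 82.4% are shared with an lncRNA gene on the same strand in GENCODE 44, and the part of this overlap in its level was not tested.

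The serine pathway runs from PHGDH through PSAT1 to PSPH, and SHMT2 and MTHFD2 carry the one-carbon unit on in mitochondria. PHGDH, the entry enzyme, was at 300 and 210 CPM untreated and at 436 and 383 CPM after doxorubicin. PSAT1 was at 286 and 89.3 CPM against 297 and 303 CPM, and PSPH had 104 and 35.4 against 99.4 and 83.5. In PSAT1 untreated replicate 1 was close to the treated libraries, and in PSPH it was above them. SHMT2 was at 338 and 266 CPM untreated and at 425 and 352 CPM after doxorubicin, and MTHFD2 had 162 and 112 against 169 and 172. CTH, which makes cysteine from cystathionine, was at a CPM of 40.1 and 28.9 against 38.0 and 41.5. Untreated replicate 2 was the lowest library in these 6 enzymes. ALDH1L2, the mitochondrial formyltetrahydrofolate dehydrogenase, had few counts, from 15 to 71 per library, and was highest in untreated replicate 2. The 8 enzymes had a median log2 fold change of 0.22 with all libraries, and of -0.01 (4 above 0, 4 below 0) without untreated replicate 2.

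In the 3 amino acid transporters the untreated libraries differed from each other by more than the log2 fold change between the groups. SLC7A5, the light chain of the LAT1 transporter, was at 2733 and 831 CPM untreated and at 2806 and 2225 CPM after doxorubicin. Its heavy chain SLC3A2 had the opposite order of the untreated libraries, with 1232 and 1776, and 1495 and 1198 in treated cells. SLC7A1, a transporter of cationic amino acids, had 175 and 45.4 against 170 and 163. The log2 fold changes of these 3 genes were 0.34, -0.31 and 0.43, and without untreated replicate 2 they were -0.26, -0.02 and -0.22.

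The remaining ATF4 targets, a secreted glycoprotein and a surface receptor, had the smallest p-values among the 37 genes. STC2, which encodes stanniocalcin 2 (chromosome 5, 173314723 to 173328447), was at 105 and 163 CPM untreated and at 417 and 355 CPM after doxorubicin. Its log2 fold change was 1.38 ± 0.35 (SE, adjusted p = 0.773, edgeR). VLDLR, a lipoprotein receptor (chromosome 9, 2621182 to 2660056), was at 5.84 and 2.94 CPM untreated and at 20.1 and 19.9 CPM after doxorubicin, for a log2 fold change of 2.02 ± 0.52 (SE, adjusted p = 0.773, edgeR). In both genes the treated libraries lay above both untreated libraries, and the gap between replicates was smaller than the gap between groups.

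The chaperones and folding factors of the ER branch numbered 8, all 8 had a log2 fold change below 0, and 0 had an edgeR p-value under 0.05. With library size alone as the scaling, 1 of the 8, CANX, was above 0. SDF2L1, a partner of the chaperone BiP, was at 130 and 170 CPM untreated and at 121 and 86.2 CPM after doxorubicin. MANF, a secreted folding factor (chromosome 3, 51385291 to 51389397), was at 83.1 and 149 CPM against 79.5 and 78.6 CPM, for a log2 fold change of -0.71 ± 0.39 (SE, adjusted p = 0.773, edgeR). CRELD2, a disulfide isomerase of the ER (chromosome 22, 49918167 to 49927540), was at 35.6 and 83.0 CPM against 37.9 and 28.8 CPM, for a log2 fold change of -0.98 ± 0.51 (SE, adjusted p = 0.773, edgeR). Untreated replicate 2 was highest for SDF2L1, MANF and CRELD2, and untreated replicate 1 was within 0.60 of the treated libraries on the log2 scale. SDF2L1, MANF and CRELD2 had -0.48, -0.22 and -0.24 on the log2 scale when untreated replicate 2 was left out.

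HYOU1, a large chaperone of the ER, was at 285 and 421 CPM untreated and at 284 and 246 CPM after doxorubicin. The disulfide isomerases PDIA4 and PDIA6 had 218 and 163 against 191 and 172, and 326 and 419 against 344 and 325. The lectin chaperones CALR and CANX, which hold glycoproteins during folding, had overlapping groups, with a CPM of 1556 and 1792 against 1641 and 1357 for CALR, and of 1162 and 1198 against 1166 and 1322 for CANX. Per kb of exon CALR was the highest of the ER branch in every library, between 714 and 943 CPM per kb. HSPA5 and HSP90B1, the main chaperones of the ER lumen that are not among the 37 genes, had log2 fold changes of -0.09 and 0.09 (standard errors 0.26 and 0.27).

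XBP1 and 3 factors of ER-associated degradation made up the rest of the ER branch. HERPUD1, a membrane protein that assembles the degradation complex (chromosome 16, 56932142 to 56944864), was at 71.0 and 49.0 CPM untreated and at 126 and 130 CPM after doxorubicin, for a log2 fold change of 0.93 ± 0.35 (SE, adjusted p = 0.773, edgeR). SEL1L, the adaptor of the ubiquitin ligase in that complex (chromosome 14, 81471547 to 81533853), was at 48.2 and 41.8 CPM against 83.9 and 97.5 CPM, for a log2 fold change of 0.85 ± 0.33 (SE, adjusted p = 0.773, edgeR). EDEM1, which hands misfolded glycoproteins to degradation, had 39.7 and 41.5 against 55.7 and 59.9. In these 3 genes both treated libraries were above both untreated libraries. Other degradation factors outside the 37 genes, named here after their values were seen, were divided. EDEM2 and DNAJC10 also had both treated libraries above both untreated libraries, with log2 fold changes of 0.14 and 0.4. Without untreated replicate 2 these were 0.02 and 0.19. EDEM3 had 0.32, with overlapping groups. The log2 fold changes of SYVN1, OS9, DERL2, DERL1 and SELENOS were -0.76, -0.61, -0.41, -0.34 and -0.23, all with overlapping groups, and without untreated replicate 2 they were 0.04, 0.22, 0.03, -0.04 and 0.06. XBP1 (chromosome 22, 28794555 to 28800597) was at 189 and 352 CPM untreated and at 283 and 292 CPM after doxorubicin, so that the groups overlapped. Its log2 fold change was -0.07 ± 0.38 (SE, adjusted p = 0.962, edgeR), and it was 0.09 with library size alone as the scaling.

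The 3 sensors were low per length, with at most 8.61 CPM per kb of exon. ERN1 (chromosome 17, 64039080 to 64130819) was at 12.4 and 41.3 CPM untreated and at 18.3 and 19.5 CPM after doxorubicin. EIF2AK3 (chromosome 2, 88556741 to 88691518) had 18.9 and 13.4 against 21.4 and 25.9, and ATF6 (chromosome 1, 161766298 to 161977574) had 61.7 and 24.8 against 76.3 and 91.0. Their log2 fold changes were -0.66, 0.39 and 0.79, with standard errors of 0.63, 0.41 and 0.50 and adjusted p-values of 0.796, 0.805 and 0.773 (edgeR). For ERN1 untreated replicate 2 was the highest library, and for EIF2AK3 and ATF6 it was the lowest. Without it the log2 fold changes of ERN1, EIF2AK3 and ATF6 were 0.46, 0.17 and 0.29.

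The second comparison set the ATF4 branch against the ER branch. With all libraries the median log2 fold change was 0.39 over the 22 genes of the ATF4 branch (17 above 0, 5 below 0) and -0.27 over the 12 genes of the ER branch (3 above 0, 9 below 0), against 0.01 over all genes tested, so that the branches were 0.66 apart. The order of libraries was read in CPM, which has library size alone as its scaling, unlike the fold changes. In the ATF4 branch both treated libraries were above both untreated libraries in 12 genes and below in 1. In the ER branch this was so in 3 and 3, against 30.3% above and 11.5% below among all genes. The medians are descriptions, since genes of a branch are not replicates.

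Each treated library was then divided by each untreated library. These ratios share libraries and are not independent. Over untreated replicate 1, the median log2 ratio of the ATF4 branch was 0.52 in doxorubicin replicate 1 and 0.24 in doxorubicin replicate 2, while that of the ER branch was 0.08 and -0.04 and that of all genes 0.13 and 0.23. In doxorubicin replicate 2 the ATF4 branch was thus at the median of all genes. Over untreated replicate 2, the ATF4 branch had 1.13 and 0.97, the ER branch -0.21 and -0.32, and all genes 0.19 and 0.26. The branches were 0.44 and 0.28 apart over untreated replicate 1, and 1.34 and 1.29 apart over untreated replicate 2. Between the untreated libraries themselves (replicate 2 over replicate 1) the ATF4 branch had -0.52 and the ER branch 0.28, a difference of -0.81. The branches thus differed more between the untreated replicates than between treated cells and untreated replicate 1. Between the doxorubicin replicates the difference was -0.16.

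**Figure D3:**
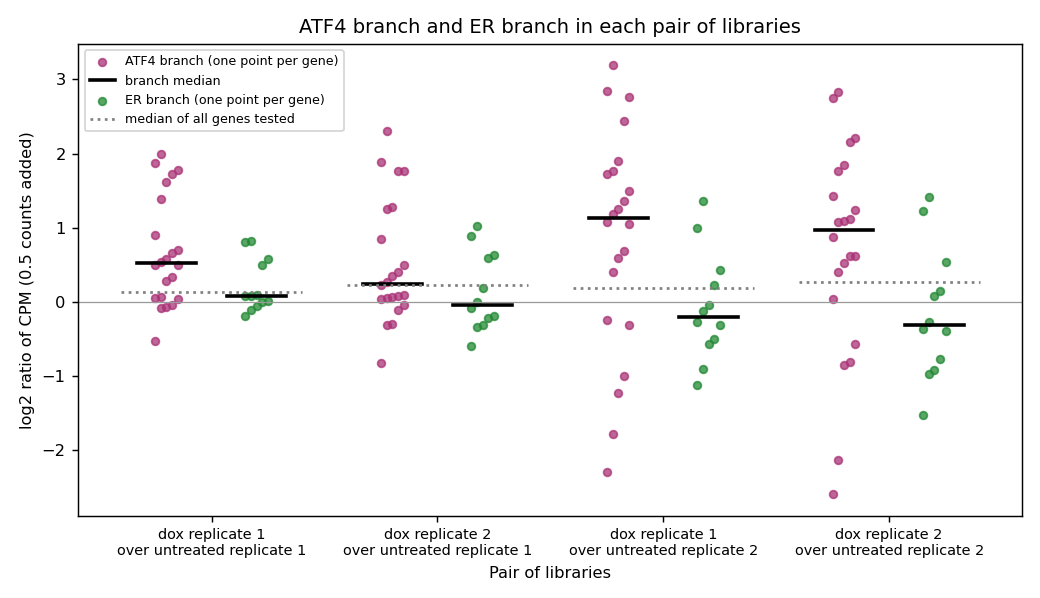
Each point is the log2 ratio of CPM (0.5 counts added to each count) of 1 gene in 1 pair of libraries, for the ATF4 branch (left of each pair) and the ER branch (right), with black bars at the branch medians and dotted lines at the median of all genes tested. The branches lie 0.44 and 0.28 apart over untreated replicate 1, and 1.34 and 1.29 apart over untreated replicate 2.

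Untreated replicate 2 was the lowest library in 14 of 22 genes of the ATF4 branch and the highest in 5. In the ER branch it was the lowest in 3 of 12 genes and the highest in 7. Among all genes it was the lowest in 45% and the highest in 36.6%. The 5 genes of the ATF4 branch in which it was the highest were DDIT3, PPP1R15A, ATF5, ALDH1L2 and SLC3A2. Of the 9 factors and effectors it was the lowest in 5 and the highest in 3, and of the 8 enzymes the lowest in 6 and the highest in 1.

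Without untreated replicate 2 the comparison rests on 1 untreated library, which is assumed to vary like the doxorubicin replicates. In this fit 6 of the 37 genes rose past the thresholds, against 3.88% of all 18356 genes tested in it, and 0 fell, against 0.556% (edgeR quasi-likelihood test, Benjamini-Hochberg). All 6 were in the ATF4 branch. They were PPP1R15A, DDIT3, STC2, VLDLR, NUPR1 and ASNS, which rose by 1.95, 1.66, 1.74, 1.63, 1.30 and 1.19 on the log2 scale, with standard errors of 0.25, 0.26, 0.24, 0.31, 0.24 and 0.36. The adjusted p-values of STC2, VLDLR, NUPR1 and ASNS were 1.93e-10, 1.48e-05, 1.53e-05 and 0.0228 (edgeR). HERPUD1 and SEL1L had log2 fold changes of 0.70 and 0.76 with adjusted p-values of 0.0481 and 0.033 (edgeR), below the threshold of size. The medians were 0.29 in the ATF4 branch and -0.15 in the ER branch, which were 0.44 apart, against 0.05 over the genes tested in that fit. At an unadjusted p-value under 0.05, 11 of the 37 genes were higher and 2, ATF5 and SDF2L1, were lower, against 12.2% and 6.9% of all genes (edgeR). Of the 22 genes of the ATF4 branch 14 were above 0, and of the 12 genes of the ER branch 4 were above 0, namely XBP1, HERPUD1, SEL1L and EDEM1.

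Without untreated replicate 1 the medians were 0.94 and -0.36. The 4 genes STC2, VLDLR, NUPR1 and ASNS had log2 fold changes of 1.16, 2.68, 2.94 and 1.05 in that fit. Their sign and a size of at least 1 were thus the same against either untreated library alone, which was not so for DDIT3 and PPP1R15A. Against untreated replicate 1 that size was a condition of their choice, and both fits use the same doxorubicin libraries. The share of all genes with such values is not given here.

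**Figure D4:**
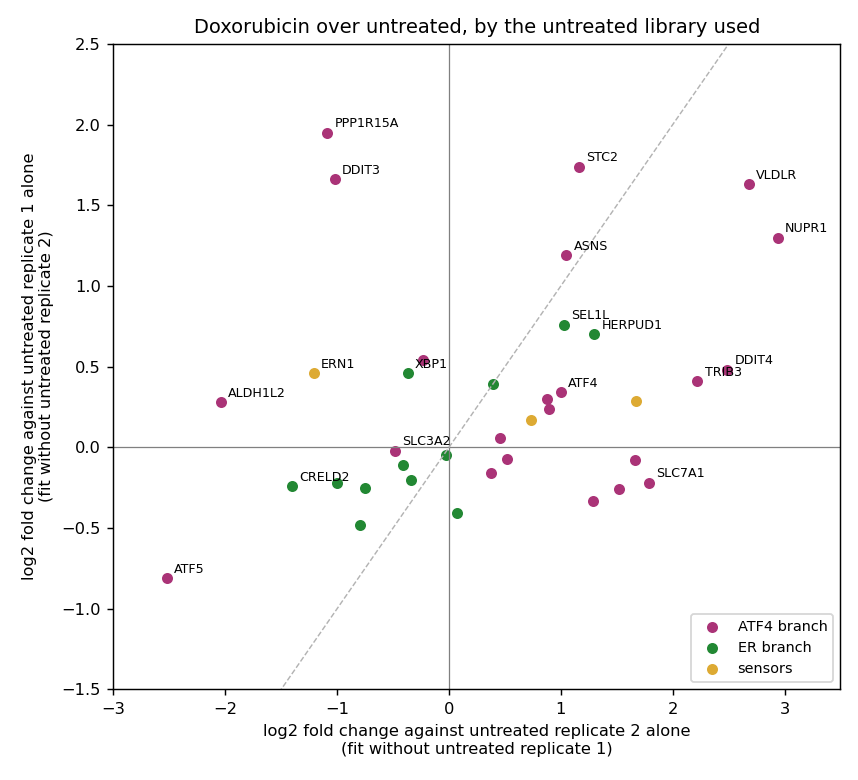
Each point is 1 of the 37 genes, with the log2 fold change against untreated replicate 2 alone on the x axis and against untreated replicate 1 alone on the y axis, and a dashed line where both are equal. STC2, VLDLR, NUPR1 and ASNS lie above 1 on both axes, while PPP1R15A and DDIT3 lie above 1 on the y axis and below -1 on the x axis.

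Other genes of these pathways were examined as lists. Of 29 further ATF4 pathway genes 28 were tested, with a median log2 fold change of 0.29. Against 2.66% of all genes upward at an unadjusted edgeR p-value under 0.05, this list had 1 gene. It was SLC7A11, the cystine transporter, at 91.3 and 34.0 CPM untreated and 210 and 214 CPM after doxorubicin, for a log2 fold change of 1.60 ± 0.52 (SE, adjusted p = 0.773, edgeR). Without untreated replicate 2 the median of this list was 0.03, against 0.05 over all genes tested in that fit. SLC7A11 had a log2 fold change of 1.07 in that fit, and ATF3 had 2.33. The log2 fold change of ATF3 was -1.73 ± 1.33 (SE, adjusted p = 0.775, edgeR) with all libraries and -2.62 without untreated replicate 1. Of 31 further ER genes 30 were tested, with a median of 0.01 (0.06 without untreated replicate 2). Here 1 gene had an unadjusted edgeR p-value under 0.05, also upward, against the same 2.66% of all genes. It was ERO1A, the oxidase that renews disulfide bonds in the ER, at 89.8 and 71.9 CPM untreated and 169 and 211 CPM after doxorubicin, for a log2 fold change of 1.07 ± 0.32 (SE, adjusted p = 0.773, edgeR). In the fit that leaves out untreated replicate 2, 2 of these ER genes passed the thresholds, both upward and both named after their values were seen. TXNDC5, a disulfide isomerase, rose by 1.41 (adjusted p = 1.87e-05, edgeR) and DNAJB9, a cochaperone of BiP, passed with an adjusted p-value of 0.013 (edgeR). Without untreated replicate 1, their log2 fold changes were 0.63 and -0.80. Of the 5 genes upstream of ATF4 (other eIF2 alpha kinases, eIF2 alpha itself and the constitutive phosphatase subunit), 0 had an edgeR p-value under 0.05, and their median was -0.07, and -0.13 without untreated replicate 2.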

How the data were processed

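Per the study's methods, reads passed FastQC and Cutadapt, were mapped with HISAT2 and were counted with HTSeq. The authors deposited raw counts per gene symbol for each library. The submitters' processing notes name hg38, and the headers name GENCODE release 31 (basic). Tool versions and the use of strand are not given in the sources used here, so how reads of overlapping genes were assigned is not known.

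The quasi-likelihood test of edgeR 4.0.16 (R 4.3.3) was run after filterByExpr and TMM scaling, with legacy set to false and a prior count of 0.125. Genes were called at 0.05 for the p-value adjusted over all genes (Benjamini-Hochberg) and at 1 for the size of the log2 fold change. Standard errors were taken from the fold change and its F statistic. CPM used library totals without TMM. Branch medians carry no test. The members and lists were chosen with earlier results of these data known. Every member is named, with full statistics for ATF4, DDIT3, XBP1, the sensors, members with an unadjusted p-value under 0.05 and the 4 largest changes per branch. Of further pathway genes HSPA5, HSP90B1, ATF3 and those with an unadjusted p-value under 0.05 are named, and others only where the text says that they were chosen after their values were seen. CDKN1A and MDM2 were set as checks of the treatment, and MDM2 had a CPM of 43.0, 32.1, 54.8 and 56.6. The log2 fold change of MDM2 was 0.41 ± 0.35 (SE, adjusted p = 0.781, edgeR). Marker lists were summed. The squamous epithelium sum (CPM 931 to 1594) was nearly all KRT17, the fibroblast sum (116 to 155) was mostly COL1A1 and COL3A1, with COL1A2 at most 0.0693, and the leukocyte sum was at most 0.589.

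Exon overlaps and lengths came from GENCODE 44 on GRCh38. Besides ASNS and ATF5, the largest shares of exon bases overlapped by other genes were 29.7% in PDIA6 and 26.7% in MTHFD2. NUPR1 had 14.5%, with an lncRNA gene on the same strand, and DDIT3 had 13%. The part of these overlaps in the levels was not tested. The test was tried on simulated counts, whose outcome is not reported here and is not used as support. Alternatives were RLE factors, library size alone, 2 other filters, DESeq2 1.42.0, the exact test, a prior count of 2, the replicate number as a block and each library left out. The quasi-likelihood fit with legacy set to true was added after seeing the data. A level of 3 counts is a CPM between 0.0827 and 0.109, for counting error alone.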

Additional observations from a re-analysis of the deposited data

How the results depend on the processing

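With all 4 libraries, 0 members were called by the quasi-likelihood test under any scaling, filter or form of the fit tried, by the exact test or by DESeq2, while the count over all genes was 0 in the quasi-likelihood test, 46 in the exact test, 89 in DESeq2 and 20 with the replicate block. The cause was not tested. The untreated and doxorubicin libraries numbered 1 had r = 0.0399 between their deviations from the group means. Untreated replicate 2 was outside the range of the other libraries in 81.6% of the genes tested, so that this r cannot tell whether the libraries were paired. The replicate block called 0 members. With that block DDIT3 and PPP1R15A had log2 fold changes of 0.27 and 0.37 in place of -0.29 and -0.32. Genes near 0 also turned sign. CEBPG and CTH had -0.0024 and -0.0042 with RLE factors and -0.003 and -0.0035 in DESeq2, XBP1 and CANX had 0.09 and 0.08 with library size alone, and XBP1 had 0.02 without a filter. Library size alone moved the median of all genes from 0.01 to 0.17 and left the branches 0.66 apart. In these settings the branch difference lay between 0.61 and 0.77.

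Leaving out 1 library at a time, members called ranged from 0 to 21 and calls over all genes from 0 to 8697, both highest without untreated replicate 1. Members with an unadjusted p-value under 0.05 ranged from 0 to 29, the median of the ATF4 branch from 0.20 to 0.94, and the branch difference from 0.44 to 1.30. Members that turned sign ranged from -1.02 to 1.66 (DDIT3), -1.09 to 1.95 (PPP1R15A), -0.23 to 0.54 (CEBPG), -0.08 to 1.66 (PSAT1), -0.33 to 1.29 (PSPH), -0.07 to 0.52 (MTHFD2), -2.04 to 0.28 (ALDH1L2), -0.16 to 0.38 (CTH), -0.26 to 1.52 (SLC7A5), -0.22 to 1.79 (SLC7A1), -0.37 to 0.46 (XBP1), -0.41 to 0.07 (PDIA4), -0.08 to 0.004 (CANX) and -1.21 to 0.46 (ERN1). In 11 of the 14 the sign turned without untreated replicate 2. The highest counts of members above came from the fit without untreated replicate 1, which rests on 1 untreated library. Of the 19606 genes tested in that fit, most also had an unadjusted p-value under 0.05 (edgeR). High counts in that fit are therefore not particular to the 37 genes, and whether the share of members exceeds that of all genes was not tested.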

Other observations

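The aminoacyl-tRNA synthetases, which load amino acids onto tRNA and include many ATF4 targets, were taken from the list of further pathway genes after their values were seen. All 12 were tested, and 0 had an unadjusted edgeR p-value under 0.05 with all libraries. Their median log2 fold change was 0.31, with 11 above 0 and 1, SARS, below 0. Untreated replicate 2 was the lowest library in 10 of the 12, with a median log2 ratio of -0.75 over untreated replicate 1. AARS, the alanine enzyme, was at 526 and 175 CPM untreated and at 725 and 705 CPM after doxorubicin, and EPRS, which joins glutamate and proline activities, was at 315 and 102 against 306 and 357. Without untreated replicate 2 the median of the 12 was -0.02.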
